A study of Mus musculus with 9 samples.

Results

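Ms4a4b, Ms4a6b and Ms4a4c are 3 neighbouring genes of the membrane-spanning 4A (MS4A) family, out of 41978 genes in the table. They were chosen by their measured values, because all 3 were higher in GFPhi than in GFPlo SP4 thymocytes while the study's OT-II experiment placed members of the group among the genes lowered by thymic antigen. All 3 symbols were found, 1 row each, and all 3 passed the filter for expressed genes, 1 TPM or more (transcript level scaled to the library total) in 3 or more of the 9 samples. The levels below therefore describe the genes, and no test is attached to their differences between GFP groups. In the OT-II table the direction was checked gene by gene. Ms4a4b and Ms4a6b were called lower in OT-II SP4 thymocytes from hosts expressing membrane ovalbumin in the thymic medulla (RIPmOVA) than from wild-type hosts. Ms4a4c was on the higher side there and was not called, so the description of the genes as opposing the antigen program held for Ms4a4b and Ms4a6b and not for Ms4a4c.

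The samples were CD4 single-positive (SP4) thymocytes of Nur77-eGFP BAC Tg mice on a C57BL/6 background, in which a transgene carrying Nr4a1 regulatory sequence drives eGFP in cells that have received a T-cell receptor (TCR) signal. The mice were 3 to 10 weeks old by the study's methods, and none of the groups was treated. Live CD25- CD69+ CD24+ CD4+ CD8- cells, the semi-mature SP4 stage, were sorted into the lowest (GFPlo), a medium (GFPmed) and the highest (GFPhi) 10% of GFP, 10000 cells a sample and 3 biological replicates a group. The main text of the study gives CD24lo for this gate, whereas its methods and the labels give CD24hi or CD24+. GFP reports signal through the transgene and not directly the ligand, so a group is a range of reporter level within one gate and not a cell type. Reads on genes ran from 7465552 to 14943774 a sample. Cd4 stood at 582.2 ± 36.4 TPM in GFPlo and 473.8 ± 28.9 TPM in GFPhi and Cd8a at 16.7 ± 2.38 and 7.15 ± 1.40 TPM (SD, n = 3).

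MS4A proteins cross the membrane 4 times, with both ends in the cytoplasm, and some are known from single blood lineages. MS4A1 is CD20 of B cells and MS4A2 is the beta chain of the high-affinity IgE receptor of mast cells. In T cells, MS4A4B and MS4A6B have been found with the costimulatory receptor GITR (Tnfrsf18) and are thought to tune activation and proliferation. MS4A4C is a close relative of MS4A4B that has been described as interferon-inducible.

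On GRCm38 the 3 genes lie on the plus strand of chromosome 19, at chr19:11404770-11427246 for Ms4a4c, chr19:11443553-11467055 for Ms4a4b and chr19:11516512-11531256 for Ms4a6b. Their coding sequences are shown first because their likeness bears on how well short reads tell the genes apart. The coding part is only a portion of the principal transcripts, which have 4750 bases for Ms4a4b and 1723 for Ms4a4c. Over the 681 coding bases of Ms4a4b and of Ms4a4c, 625 positions were identical, 91.8%. Ms4a6b is more distant, with 49.5% identity to Ms4a4b and 50.3% to Ms4a4c over the aligned coding bases. The longest identical stretch of Ms4a4b and Ms4a4c spanned 127 bases from coding base 321, longer than one 100-base read, and reads as follows in both genes, in GENCODE transcripts:
Ms4a4b and Ms4a4c, shared: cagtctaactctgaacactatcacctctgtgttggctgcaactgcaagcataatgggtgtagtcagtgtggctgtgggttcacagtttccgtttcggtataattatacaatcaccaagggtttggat
The stretch of 60 coding bases that differed most, coding bases 188 to 247, held 13 differing positions, in capitals:
Ms4a4b: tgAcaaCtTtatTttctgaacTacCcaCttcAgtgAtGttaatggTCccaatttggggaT
Ms4a4c: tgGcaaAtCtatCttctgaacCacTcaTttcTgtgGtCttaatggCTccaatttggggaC

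Of the 4651 stretches of 100 bases in the principal Ms4a4b transcript, 41 also occurred in another gene (Ms4a4c or Ms4a2). For Ms4a4c 28 of 1624 were shared with Ms4a4b, and for Ms4a6b 0 of 2581 were shared. Exact sharing therefore touched a small part of each transcript. The study sequenced pairs of 100-base reads, and the second read of a pair was not considered in these counts. A 100-base read of Ms4a4b that differs from Ms4a4c at only a few positions can still be placed wrongly through sequencing errors, and the part this had in Ms4a4c was not tested.

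The bases before the RefSeq start of each gene are shown because the pair that resembles each other in coding sequence does so here as well. For Ms4a4c and Ms4a6b this start lies inside the GENCODE gene given above, whose annotated start is farther upstream. The windows are RefSeq promoter sequence on GRCm38.p6, plus strand, chr19:11443308-11443547 for Ms4a4b, chr19:11407411-11407650 for Ms4a4c and chr19:11518309-11518452 for Ms4a6b. For the first 2, the capitals mark aligned runs of at least 8 identical bases, 80 bases in each. For Ms4a6b they mark the letters of the core interferon-stimulated response element, GAAANNGAA.
Ms4a4b: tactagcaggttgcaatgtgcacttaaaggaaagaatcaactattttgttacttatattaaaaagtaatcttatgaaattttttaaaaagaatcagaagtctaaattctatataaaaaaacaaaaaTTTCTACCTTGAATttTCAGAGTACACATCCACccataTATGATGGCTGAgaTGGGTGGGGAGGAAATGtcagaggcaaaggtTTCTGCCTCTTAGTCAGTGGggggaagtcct
Ms4a4c: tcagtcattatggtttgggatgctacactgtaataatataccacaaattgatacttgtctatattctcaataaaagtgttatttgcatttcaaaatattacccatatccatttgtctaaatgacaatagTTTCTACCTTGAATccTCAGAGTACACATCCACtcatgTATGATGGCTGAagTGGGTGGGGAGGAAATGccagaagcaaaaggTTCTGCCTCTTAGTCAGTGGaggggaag
Ms4a6b: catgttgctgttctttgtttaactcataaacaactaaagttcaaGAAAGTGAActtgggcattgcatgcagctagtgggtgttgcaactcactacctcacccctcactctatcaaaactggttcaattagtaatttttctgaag

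Identity was computed over 240 bases before each RefSeq start, part of which is exonic in GENCODE for Ms4a6b and is not printed. It was 68.0% between Ms4a4b and Ms4a4c, 43.8% between Ms4a4b and Ms4a6b and 48.2% between Ms4a4c and Ms4a6b. The identical runs of Ms4a4b and Ms4a4c lay in the part of the window nearest to the start. Motifs were searched on both strands of 300-base windows, from 250 bases before to 50 bases after the start, in 27025 promoters. The NR4A monomer site (NBRE) AAAGGTCA was in 1.46% of all promoters and in 0 of the 3 MS4A windows. The STAT site TTCNNNGAA was in 8.47% of all and in 0 of the 3. GAAANNGAA was in 8.57% of all promoters and once in Ms4a6b, 206 bases before the start. The ETS core GGAAGT, in 24.1% of all promoters, was in each of the 3, and the RUNX letters TGTGGT, in 16.9%, were in Ms4a4c. The 2 ETS matches of Ms4a6b lie outside the shorter stretch printed for it. These are matches of letters in one window a gene and not binding sites.

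Ms4a4b had the largest span of levels in reads. Its TPM was 50.04, 34.3 and 42.3 in the 3 GFPlo samples, 85.5, 71.4 and 75.3 in GFPmed, and 215.5, 179.5 and 181.6 in GFPhi. No group overlapped another, and the lowest GFPhi sample stood 94.0 TPM above the highest GFPmed sample. The means were 42.2 ± 7.89, 77.4 ± 7.28 and 192.2 ± 20.2 TPM (SD, n = 3), so that GFPhi was 4.55-fold over GFPlo and GFPmed 1.83-fold over GFPlo. On the log2(TPM + 1) scale the GFPhi minus GFPlo difference was 2.17 (SE 0.15). In bulk samples such as these, fewer cells expressing a gene and less RNA per cell cannot be told apart.

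Ms4a6b changed in the same order and less. Its TPM was 81.2, 59.1 and 71.3 in GFPlo, 117.2, 92.8 and 103.1 in GFPmed, and 163.2, 145.5 and 150.9 in GFPhi. Again no group overlapped another, although the gaps were smaller relative to the level, 11.6 TPM between GFPlo and GFPmed and 28.2 TPM between GFPmed and GFPhi. The means were 70.5 ± 11.1, 104.4 ± 12.3 and 153.2 ± 9.06 TPM (SD, n = 3), a 2.17-fold difference between GFPhi and GFPlo. The log2(TPM + 1) difference was 1.12 (SE 0.13), close to the limit of 1 used for calling a gene. Without GFPlo replicate 2 it fell to 0.998.

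Ms4a4c was a low gene. Its TPM was 1.23, 0.558 and 0.327 in GFPlo, 1.42, 0.811 and 1.55 in GFPmed, and 5.69, 4.23 and 6.76 in GFPhi. GFPlo and GFPmed overlapped, since the highest GFPlo sample exceeded the lowest GFPmed sample, and GFPhi lay above both. These values rested on 23, 13 and 7 reads in GFPlo, 51, 18 and 29 in GFPmed, and 171, 111 and 162 in GFPhi. At the lowest of these, 7 reads, the exact 95% Poisson interval ran from 2.81 to 14.4 reads, which covers counting error only. The means were 0.705 ± 0.469, 1.26 ± 0.394 and 5.56 ± 1.27 TPM (SD, n = 3), 7.88-fold between GFPhi and GFPlo. Without GFPlo replicate 1, the highest of its group, the ratio was 12.6. The log2(TPM + 1) difference of 1.96 (SE 0.28) understates this ratio because the added 1 is as large as the low levels. It was 2.95 with 0.1 added in place of 1.

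**Figure D1:**
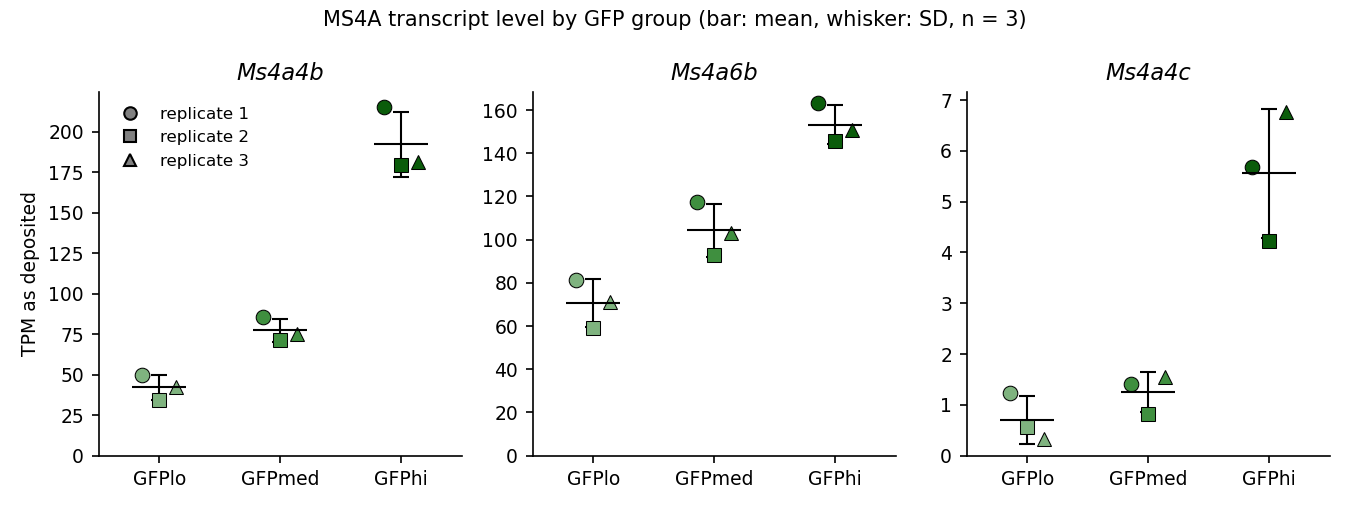
TPM as deposited (vertical axis, linear, from 0) of Ms4a4b, Ms4a6b and Ms4a4c in the 3 GFP groups; each point is 1 sample, the symbol gives its replicate number, the bar is the mean and the whisker the SD over 3 samples. The GFPhi samples lie above all others for each gene, and GFPlo and GFPmed overlap for Ms4a4c only, where the highest GFPlo sample had 1.23 TPM and the lowest GFPmed sample 0.811 TPM.

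The share of the change that was reached in GFPmed is given for each of the 3 genes as a point value. No error was computed for the shares, so a difference between genes was not tested, and the share of Ms4a4c rests on few reads. Measured on log2(TPM + 1), GFPmed had covered 0.504 of the GFPlo-to-GFPhi difference of Ms4a6b, 0.401 of that of Ms4a4b and 0.217 of that of Ms4a4c. For Ms4a6b the steps were alike, 0.56 from GFPlo to GFPmed and 0.55 from GFPmed to GFPhi (SE 0.13 each). For Ms4a4b they were 0.87 and 1.30 (SE 0.15 each), and for Ms4a4c 0.43 and 1.53 (SE 0.28 each). The share of Ms4a4c depends on the added 1, which is about as large as its levels in GFPlo and GFPmed. As ratios of mean TPM, GFPmed over GFPlo was 1.79 for Ms4a4c, 1.83 for Ms4a4b and 1.48 for Ms4a6b. GFPhi over GFPmed was 4.41, 2.48 and 1.47 in that order. A gene was called in limma when its log2 difference was 1 or more in size and its p, adjusted over all tested genes by Benjamini-Hochberg, did not exceed 0.05. By these limits all 3 genes were among the 1.26% of 30693 tested genes higher in GFPhi than in GFPlo (0.404% were lower). That count was fixed by how the genes were chosen. Ranked by difference in log2(TPM + 1) between GFPhi and GFPlo, Ms4a4b was number 208, Ms4a4c number 294 and Ms4a6b number 1069. The place of Ms4a4c below Ms4a4b depends on the added 1, since the ratio of mean TPM was 7.88 for Ms4a4c and 4.55 for Ms4a4b.

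Within a library, Ms4a4b and Ms4a6b exchanged order in reads. Per Ms4a6b read there were 0.672, 0.632 and 0.646 Ms4a4b reads in the GFPlo samples and 0.795, 0.838 and 0.796 in GFPmed. In GFPhi there were 1.44, 1.35 and 1.31. The 3 groups did not overlap, and a ratio within a library does not depend on how libraries are scaled. It shows an unequal change and not which of the pair moved.

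The order of levels between genes depends on the length by which reads are divided. The deposited TPM were divided by the average stretch of genome that the transcripts of each gene cover, with introns, which is 10526 bases for Ms4a4b, 9658 for Ms4a6b and 14288 for Ms4a4c. By exonic length (8780, 4485 and 1751 bases) Ms4a6b stood at 26.2 ± 4.16 RPKM (reads per kilobase, scaled to library size) in GFPlo, Ms4a4b at 8.74 ± 1.65 and Ms4a4c at 0.996 ± 0.666 (SD, n = 3). In GFPhi the values were 57.7 ± 5.58, 40.4 ± 5.65 and 7.96 ± 1.998. On this scale Ms4a6b was the highest and Ms4a4c the lowest of the 3 in all 9 samples, and the same order held with the lengths of the principal transcripts, 4750, 2680 and 1723 bases. Among tested genes with an annotated length, 92.7% lay below Ms4a6b in GFPlo and 97.2% in GFPhi. For Ms4a4b these shares were 78.8% and 95.7%, and for Ms4a4c 28.6% and 77.2%.

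Ms4a4c reads were few beside those of its neighbour Ms4a4b, with 91.8% identity in coding sequence. They came to 3.34%, 2.21% and 1.05% of the Ms4a4b reads in the GFPlo samples, 2.26%, 1.54% and 2.79% in GFPmed, and 3.58%, 3.20% and 5.05% in GFPhi. The GFPhi shares overlapped those of GFPlo, in which replicate 1 had more than GFPhi replicate 2. How many of the Ms4a4c reads came from Ms4a4b transcripts was not tested, so its level is uncertain.

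A second measure of low levels came from 1403 olfactory and vomeronasal receptor genes, which thymocytes are not known to use. Their 95th percentile ran from 1.83 to 3.24 RPKM by exonic length over the samples. Ms4a4b and Ms4a6b were above that level in all 9 samples, and Ms4a4c in the 3 GFPhi samples, 1 GFPmed sample and 0 GFPlo samples. At this depth Ms4a4c in GFPlo was therefore within the range of genes not expected there.

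**Figure D2:**
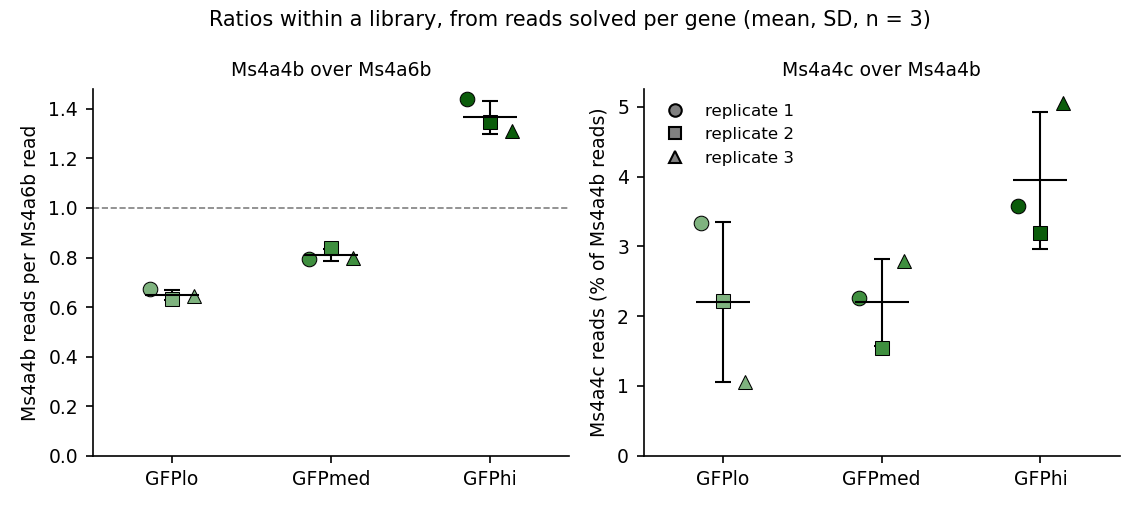
Left, Ms4a4b reads per Ms4a6b read; right, Ms4a4c reads as a percentage of Ms4a4b reads; both axes are linear from 0, each point is 1 sample, and bar and whisker are mean and SD over 3 samples. The left ratio lies below 1 in the 6 GFPlo and GFPmed samples and between 1.31 and 1.44 in GFPhi, while the right percentages of GFPlo and GFPhi overlap.

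The other MS4A genes were mostly low. Of 19 further family genes in the table, including the more distant relatives Tmem176a and Tmem176b, 8 passed the filter and 0 were called in either direction between GFPhi and GFPlo, by limma or by limma-voom on reads (2 had an unadjusted p below 0.05 in limma). Against background shares of 1.26% higher and 0.404% lower, a count of 0 among 8 genes is near the background. Their median log2 difference was -0.34, against -0.09 for all tested genes. The MS4A-like gene model Gm8369 has no MS4A symbol and is given below with the genes beside the cluster. Ms4a6c, which lies between Ms4a4b and Ms4a6b and is known from myeloid cells, was the only one of the 8 on the higher side, at 2.59 TPM in GFPlo and 3.37 TPM in GFPhi (log2FC 0.30, SE 0.21, adjusted p = 0.666).

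Tmem176b and Tmem176a, which lie on chromosome 6 and encode intracellular membrane proteins, had the lowest adjusted p of the family. Tmem176b stood at 8.20 TPM in GFPlo and 4.95 TPM in GFPhi (log2FC -0.63, SE 0.16, adjusted p = 0.0833). Tmem176a stood at 7.35 and 3.52 TPM (log2FC -0.89, SE 0.23, adjusted p = 0.0877). Both missed the threshold.

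The lineage genes of the family stayed low and were not called. Ms4a1 (CD20) had 7.20 TPM in GFPlo and 5.72 TPM in GFPhi (log2FC -0.38, SE 0.38). Ms4a2 had 7.82 and 5.83 TPM (log2FC -0.30, SE 0.45). Ms4a8a, known from epithelium and macrophages, had 1.41 and 0.753 TPM (log2FC -0.47, SE 0.25). Ms4a14 and Ms4a15 had differences of -0.21 (SE 0.37) and -0.14 (SE 0.35), and these, like that of Ms4a2, changed sign when single libraries were left out. The remaining 11 genes, among them Ms4a4a, Ms4a4d, Ms4a6d and Ms4a7, did not pass the filter and had at most 1.11 TPM and at most 30 reads in any sample. Ms4a4d, at 83.3% coding identity to Ms4a4b, and Ms4a6d, at 79.9% to Ms4a6b, were thus low although their sequences resemble those of the high genes.

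**Figure D3:**
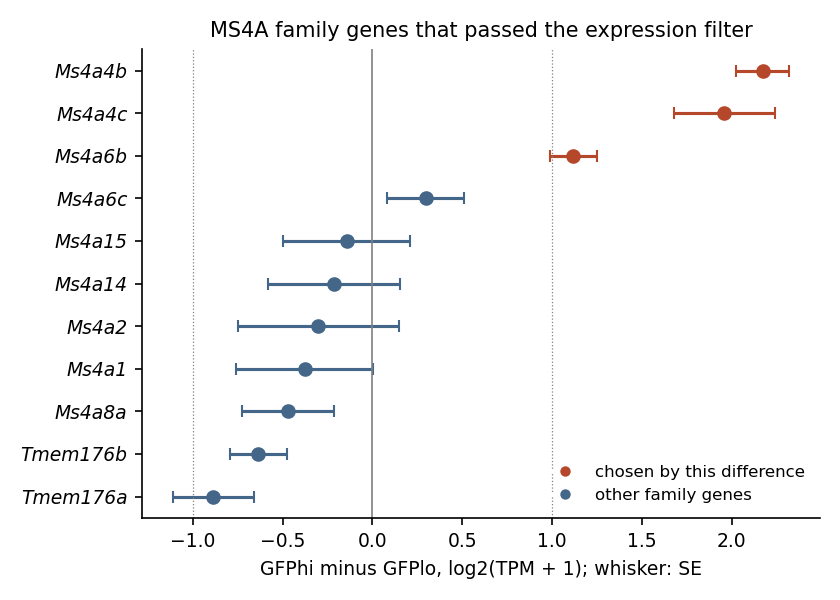
GFPhi minus GFPlo on log2(TPM + 1) (horizontal axis) for the 11 family genes that passed the filter; whiskers are SE and dotted lines mark -1 and 1. The 3 genes chosen by this difference lie between 1.12 and 2.17, and the other 8 lie between -0.89 and 0.30.

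Markers of other cells that carry MS4A genes were set beside these values. The summed level of 10 B-cell markers was 265 to 275 TPM in GFPlo and 181 to 227 TPM in GFPhi, most of it Ighm, and 0 of 7 tested markers were called. That of 16 myeloid markers was 104 to 127 TPM in GFPlo and 109 to 114 TPM in GFPhi, and 0 of 12 tested were called. Markers of natural killer cells, which are known to express Ms4a4b, summed to 31.0 to 37.5 TPM in GFPlo and 31.9 to 45.7 TPM in GFPhi, with 0 of 7 tested called. For 7 mast-cell and basophil markers the ranges were 6.66 to 10.2 and 16.5 to 25.4 TPM, and of 4 tested Kit alone rose (log2FC 2.52). Thymic epithelial markers summed to 4.95 to 15.97 and 11.6 to 16.6 TPM, and of 5 tested Epcam alone rose (log2FC 1.38). The background shares were again 1.26% higher and 0.404% lower, so counts of 0 in lists this short are near them. No marker was at 0 in every sample. Within SP4 cells, Foxp3 and Il2ra, which mark regulatory T cells and their precursors, rose by limma (log2FC 1.10 and 2.68) despite the CD25- gate. The part of such cells in the MS4A values was not tested.

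The genes around the cluster were compared because neighbours can share regulation or reads. Of 29 other genes within 500 kb of a member, 23 were tested, 1 rose and 0 fell between GFPlo and GFPhi, against 1.26% and 0.404% of all tested genes. Their median log2FC was -0.04. The gene that rose was AW112010, a long noncoding RNA known to be induced by inflammatory signals, 349 kb from the nearest member. It went from 4.82 ± 0.549 TPM in GFPlo through 6.94 ± 1.47 in GFPmed to 23.4 ± 4.52 in GFPhi (SD, n = 3; log2FC 2.05, SE 0.21, limma adjusted p = 0.00188).

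Among the closest genes none was called. Gm8369, an MS4A-like gene model between Ms4a6c and Ms4a6b, had 0.797 TPM in GFPlo and 2.60 TPM in GFPhi (log2FC 1.01, SE 0.28, adjusted p = 0.115), and only limma-voom on reads called it. The pseudogene Gm5511 lies 4.7 kb from Ms4a4b and had a log2FC of 0.36 (SE 0.40), which turned to -0.090 without GFPlo replicate 1. The lincRNA Gm28935 had 0.54 (SE 0.29) and Oosp3, known from oocytes, 0.16 (SE 0.22). Gm19261 is antisense to the start of Ms4a6b and shares 19 exonic bases with it (log2FC 0.39, SE 0.58). BE692007 runs antisense to Ms4a6c (log2FC 0.45, SE 0.36). The libraries do not keep the strand, so reads of overlapping pairs cannot be told apart. Ms4a4c shares 28 exonic bases with the antisense pseudogene Gm5692.

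**Figure D4:**
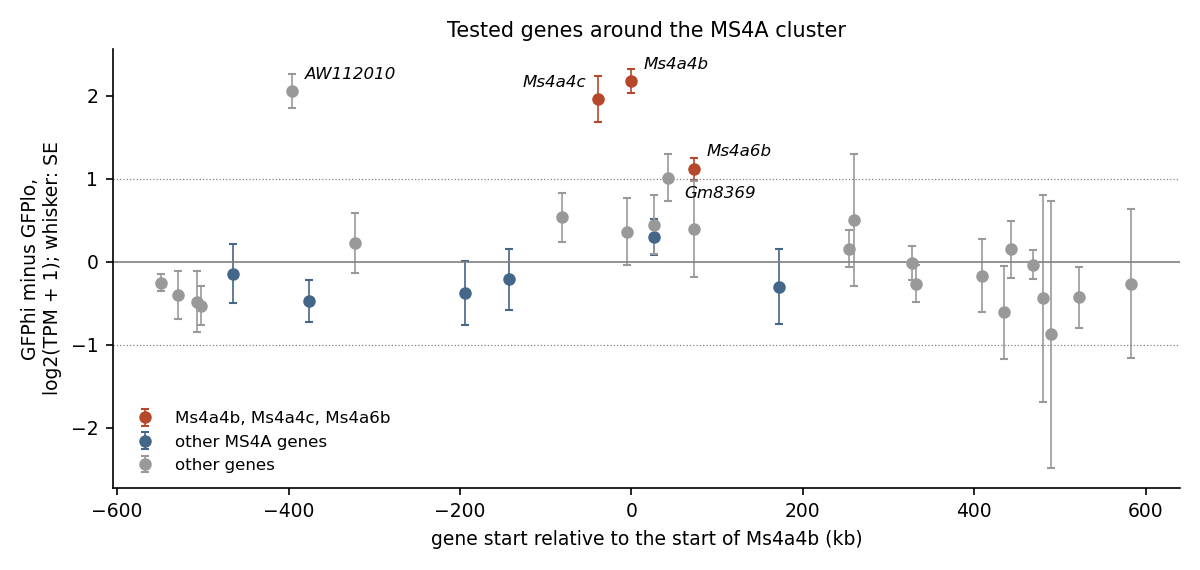
GFPhi minus GFPlo on log2(TPM + 1) with SE (vertical axis) for tested MS4A genes and other genes within 500 kb of a member, by the distance of the gene start from the start of Ms4a4b in kb. The higher values are those of the 3 chosen genes, of AW112010 at 2.05 and of the MS4A-like gene model Gm8369 at 1.01, which was not called. The other genes with an MS4A symbol lie at or below 0.30.

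GITR, with which MS4A4B and MS4A6B have been found associated, rose with the reporter. Tnfrsf18 had 174.5 ± 11.5 TPM in GFPlo, 356.6 ± 44.0 in GFPmed and 715.7 ± 68.6 in GFPhi (SD, n = 3). The log2FC between GFPhi and GFPlo was 2.03 (SE 0.11, limma adjusted p = 9.21e-05). Its ligand gene Tnfsf18 did not pass the filter. Tnfrsf18 was also among the 0.0586% of tested genes called between GFPmed and GFPlo (limma adjusted p = 0.0317). Nr4a1, the gene the reporter follows, stood at 217.0 ± 32.1, 374.3 ± 28.6 and 840.1 ± 75.0 TPM, so the sort separated the groups in the labelled order.

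Because Ms4a4c has been described as interferon-inducible, 45 interferon-stimulated genes were examined. All 45 were tested, 6 rose (13.3%, against 1.26% of all tested genes) and 0 fell between GFPlo and GFPhi, with a median log2FC of 0.60. Ifi27l2a rose most among those called, from 239.5 ± 73.8 to 1040 ± 126 TPM (log2FC 2.16, SE 0.27). Phf11b rose from 2.01 ± 0.962 to 10.2 ± 1.66 TPM (log2FC 1.93, SE 0.26). Ifi203, a DNA-sensing family member, rose from 14.3 ± 3.26 to 40.4 ± 5.14 TPM (log2FC 1.45, SE 0.20). The Schlafen gene Slfn5 also passed (log2FC 1.52, SE 0.32), but it did not under 10 of 16 alternatives. Irf7 and Irf9, interferon-regulatory transcription factors and the highest genes not called, had 0.88 (SE 0.23, adjusted p = 0.103) and 0.53 (SE 0.11, adjusted p = 0.0417).

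Maturation genes were examined because Ms4a4b and Ms4a6b are known from mature T cells. Of 16 genes of late SP maturation, all tested, 5 rose and 2 fell (against 1.26% and 0.404% of all tested genes), with a median log2FC of 0.79. S1pr1, the receptor for thymic exit, rose from 7.65 ± 1.57 to 221.7 ± 9.60 TPM (log2FC 4.70, SE 0.15), and its activator Klf2 from 87.8 ± 9.41 to 537.0 ± 43.2 TPM (log2FC 2.60, SE 0.12). The class I gene H2-Q7 rose (log2FC 1.87, SE 0.29), but it was not called without GFPlo replicate 2 or without GFPlo replicate 3. The interleukin-7 receptor gene Il7r fell from 199.9 ± 17.9 to 56.1 ± 3.42 TPM (log2FC -1.81, SE 0.09), against the direction of the list's name. H2-D1 (log2FC 0.88, SE 0.07) and Cd52 (0.12, SE 0.15) were the highest genes not called.

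Of 12 genes of early thymocytes, 10 were tested, 0 rose and 4 fell (against the same background shares), with a median log2FC of -0.66. Ccr9, the chemokine receptor of immature thymocytes, fell from 311.4 ± 18.1 to 60.4 ± 1.61 TPM (log2FC -2.35, SE 0.06). Ccr4, which is on the list although it marks cells entering the medulla, fell from 204.3 ± 13.3 to 60.5 ± 6.20 TPM (log2FC -1.74, SE 0.09). Dntt, the terminal transferase of receptor rearrangement, fell from 13.6 ± 1.26 to 4.41 ± 0.670 TPM (log2FC -1.43, SE 0.16). Cd8a also fell (log2FC -1.12, SE 0.18), but it did not pass under 5 of 16 alternatives, among them those without GFPlo replicate 2, without GFPlo replicate 3 and without GFPhi replicate 3. Sox4 had 0.60 (SE 0.14, adjusted p = 0.0586) and Cd24a, whose protein set the gate, -0.12 (SE 0.13), neither of them called.

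**Figure D5:**
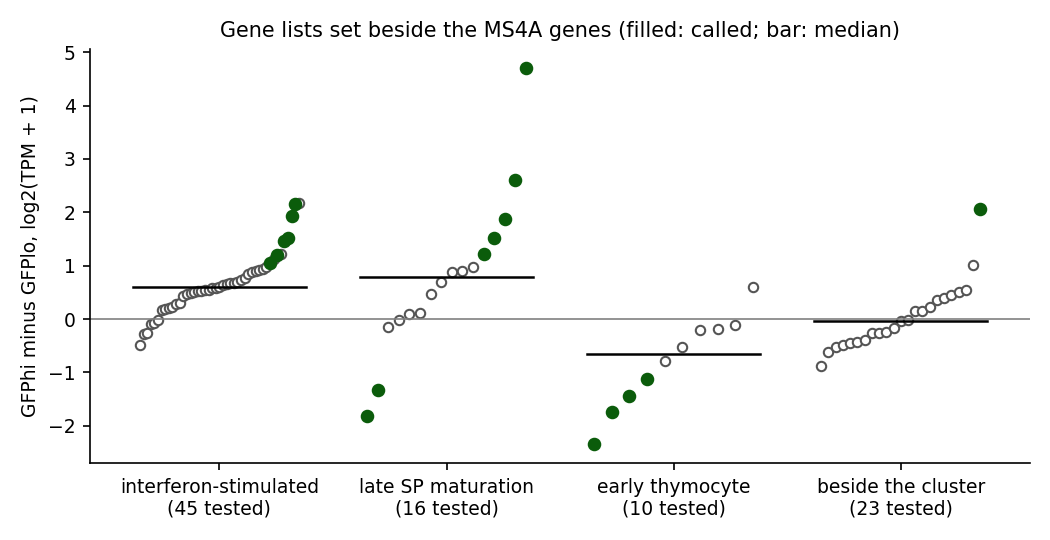
GFPhi minus GFPlo on log2(TPM + 1) (vertical axis) for each tested gene of 4 lists; filled points were called, open points were not, and the bar is the list's median. The medians are 0.60, 0.79, -0.66 and -0.04 from left to right.

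The OT-II table offered a list of 61 genes called lower with antigen, which includes Ms4a4b and Ms4a6b and which the study made on other samples. It was read from a shortened copy of the table and may not hold every gene called there. Of these, 46 were tested here, 4 rose between GFPlo and GFPhi and 0 fell (against 1.26% and 0.404% of all tested genes), with a median log2FC of -0.06. Ms4a4b and Ms4a6b were 2 of the 4. The others were Rgs11, a regulator of G-protein signalling (log2FC 1.10, SE 0.23, adjusted p = 0.0403), and the nucleoside transporter gene Slc28a2b (log2FC 1.19, SE 0.26, adjusted p = 0.0490). Both were near the threshold. The rise of Ms4a4b and Ms4a6b was fixed by how the genes were chosen, so the count of 4 is not to be read against the shares of all tested genes. Rgs11 stayed called under 6 of 16 alternatives and Slc28a2b under 1 of the 15 that gave it a value. The list's median lay close to that of all tested genes, -0.09.

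The 3 genes followed each other across the 9 samples, as the choice of members implies. On log2(TPM + 1), Pearson's r was 0.984 between Ms4a4b and Ms4a6b, 0.949 between Ms4a4b and Ms4a4c and 0.919 between Ms4a6b and Ms4a4c. All points share the same 9 libraries and the same 3 groups, so these are descriptions of a shared order. Among 30692 other tested genes, Ms4a6b ranked number 17 by likeness to Ms4a4b, and Ms4a4c number 192.

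The genes most like the mean profile of the 3, by Pearson's r over 9 samples, were Phf11b (r = 0.993), the apolipoprotein L gene Apol7e (r = 0.993), the antisense transcript 1700110K17Rik (r = 0.992), the immunoproteasome subunit gene Psmb9 (r = 0.991) and the metalloproteinase gene Mmp11 (r = 0.991). Apol7e had 11.5 ± 2.03, 19.3 ± 1.71 and 37.2 ± 2.13 TPM in GFPlo, GFPmed and GFPhi, and Mmp11 had 8.24 ± 1.80, 13.5 ± 2.38 and 37.7 ± 2.63 TPM. The least alike were Eng, a TGF-beta co-receptor (r = -0.991), Atxn10 (r = -0.988), Fkbp1a, the target of rapamycin and FK506 (r = -0.986), Itm2a, a membrane protein induced at positive selection (r = -0.985), and the dynactin gene Dctn6 (r = -0.985). Itm2a fell from 4383 ± 440 to 1523 ± 196 TPM and Fkbp1a from 301.7 ± 35.7 to 100.4 ± 4.25 TPM (SD, n = 3). S1pr1 ranked number 23, Nr4a1 number 92, AW112010 number 196 and Tnfrsf18 number 243 of 30690 genes by this measure. The profile was made from genes chosen for their rise, so these likenesses carry no test.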

How the data were processed

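RNA-seq of 9 samples of sorted SP4 thymocytes, 3 each of GFPlo, GFPmed and GFPhi, was taken from 1 table, and samples were grouped by their labels. After trimming, the authors mapped reads to GRCm38 with STAR 2.7.11b, which also removed identical duplicates and gave gene counts, and deposited the counts as TPM. The divisor of the TPM matched the average genomic stretch covered by the transcripts of each gene. The authors also deposited mean normalized signal per group, made with DESeq2 1.34.0, and log2 fold changes, adjusted p-values and score flags of their own comparisons, which were not used. TPM and group means together gave whole reads per sample for 41578 genes (400 were not solved), from 7465552 to 14943774 in total. Counting intervals are exact 95% Poisson intervals, and PCR reads without molecular identifiers make them a lower limit of the error.

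Log2(TPM + 1) was fitted with limma 3.58.1 in R 4.3.3 over all 9 samples, with a trended prior, for the 30693 genes that reached 1 TPM in 3 or more samples. Adjusted p-values are Benjamini-Hochberg over all these genes, and a call needs an absolute log2 difference of at least 1 and adjusted p of at most 0.05. The fit was also run on simulated data, with the same spread setting for all genes and changes placed only in genes of at least 5 TPM in every sample. That run does not cover low genes such as Ms4a4c, and no result here rests on it. The members and gene lists were chosen with earlier results of these data known. Genes named are the 3 members; other family genes that passed the filter; of each list up to 4 called genes with the largest difference and 2 not called with the highest level; up to 6 genes beside the cluster by distance; the 5 genes most and 5 least like the members' mean profile; called genes of the OT-II list; and Nr4a1. Kit, Epcam, Foxp3 and Il2ra were named after their values were seen. Gene models are GENCODE vM21 and promoters RefSeq (GRCm38.p6, all 3 members matched). OT-II directions and the OT-II list come from a shortened copy of the study's supplementary table, whose samples were not analysed here. The alternatives were a pseudocount of 0.1, no filter, a filter at 5 TPM, median-of-ratios scaling, only the 2 groups compared, the replicate block, each sample left out and limma-voom on the solved reads. Same-numbered samples are not stated to share a mouse, and p-values measure the spread between biological replicates as labelled.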

Additional observations from a re-analysis of the deposited data

How the results depend on the processing

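The higher level of Ms4a4b, Ms4a6b and Ms4a4c in GFPhi than in GFPlo kept its direction under every alternative tried. These were 16 for Ms4a4b and Ms4a6b and 15 for Ms4a4c, which did not pass the filter at 5 TPM. The genes were chosen for this rise, and no GFPhi sample overlapped GFPlo. That direction was therefore fixed by the choice, and only the sizes below are informative. With single libraries left out the log2 differences ran from 2.03 to 2.30, 0.998 to 1.22 and 1.80 to 2.17 in that order. Ms4a4c moved with the scale, to 2.95 with a pseudocount of 0.1 and 3.15 with limma-voom on reads. For genes called between GFPhi and GFPlo, 387 higher and 124 lower, median-of-ratios scaling gave 69 lower and only the 2 groups compared gave 81 lower. Left-out libraries gave 252 (without GFPhi replicate 3) to 360 higher and 80 (without GFPlo replicate 2) to 170 (without GFPhi replicate 1) lower. Between GFPmed and GFPlo, 17 higher and 1 lower became 5 and 0 with median-of-ratios scaling, 7 and 3 with only the 2 groups, 4 lower with the pseudocount of 0.1, and 2 to 16 higher and 0 to 3 lower with left-out libraries, the fewest higher without GFPmed replicate 3. Between GFPhi and GFPmed, 166 higher and 46 lower became 86 and 16 with median-of-ratios scaling, 259 and 76 with limma-voom, and 79 to 160 and 25 to 59 with left-out libraries, the fewest without GFPhi replicate 3 (higher) and GFPmed replicate 1 (lower). Limma-voom called 2 genes beside the cluster. The causes were not tested.

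With single libraries left out, Ms4a14 ran from -0.56 to 0.18, Ms4a15 from -0.38 to 0.17, reaching 0.03 without GFPhi replicate 2, Ms4a2 from -0.69 to 0.043, Cd52 from -0.018 to 0.20 and Gm5511 from -0.090 to 0.64, none of them called. The replicate block left 346 higher and 124 lower between GFPhi and GFPlo, and 5 and 0 between GFPmed and GFPlo. The numbers were not taken as paired, because the labels do not state it. Deviations of same-numbered samples correlated at 0.01 to 0.22 (mean 0.061) and those of other pairs at -0.19 to 0.15 (mean -0.030). A sample was closest to its own number in 12 of 18 cases, each with 3 candidates. Same-numbered samples were thus somewhat more alike than others. Whether they share a mouse or a sort was not tested, and the main fit treats the 9 samples as independent. For Ms4a4b and Ms4a6b, replicate 1 was the highest and replicate 2 the lowest in each group, which did not hold for Ms4a4c. Ratios of same-numbered samples, GFPhi over GFPlo, ran from 4.29 to 5.24 for Ms4a4b and from 2.01 to 2.46 for Ms4a6b. For Ms4a4c they ran from 4.62 to 20.7. The SD and SE given for these genes include any such shift between numbers. Depth limits Ms4a4c, with 7 to 23 reads in GFPlo, and the family genes that did not pass the filter, with at most 30 reads.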
